A study of Mus musculus with 6 samples.

Results

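The genes described are the 10 genes of MHC class II antigen presentation and its transactivator that were listed for these data: the classical chains H2-Aa, H2-Ab1 and H2-Eb1, the invariant chain Cd74, the peptide editor chains H2-DMa, H2-DMb1 and H2-DMb2, the editor inhibitor chains H2-Oa and H2-Ob, and Ciita. They were listed by symbol, and are 10 of the 53379 genes counted. RNA-seq libraries came from follicular helper T (Tfh) cells sorted from the spleens of 3 CTL and 3 Prdm1-CKO mice, 1 library per mouse. All 6 mice were female, age-matched and immunized with the hapten-protein conjugate NP-CGG, and the sort took live TCRb+CD4+CXCR5+PD1+ cells. Prdm1-CKO mice were Prdm1 fl/fl; CD11c-CRE+, so that Prdm1, the gene of the repressor Blimp-1, is deleted where the CD11c promoter is active, chiefly in dendritic cells, and not by design in Tfh cells. CTL mice were Prdm1 fl/fl; CD11c-CRE- or Prdm1 +/+; CD11c-CRE+, and the labels do not say which of these each CTL mouse was. Sample titles name the second group Blimp1 KO, whereas the genotype field has Blimp1 KD.

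MHC class II molecules are pairs of an alpha and a beta chain that show peptides from the endocytic route to CD4+ T cells. The invariant chain, made by Cd74, holds new dimers until they reach the endosome, where H2-DM exchanges the remnant of the invariant chain for other peptides and H2-O restrains H2-DM. Ciita binds no DNA by itself and switches these genes on through the RFX and NF-Y factors at a shared promoter layout, and Blimp-1 is known as a repressor of Ciita in plasma cells. In mice, B cells, dendritic cells and macrophages are the usual sites of class II transcription, and T cells are not known for it.

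The promoters are shown because Ciita acts through them and because the levels given further on move together more closely in some of these genes than in others. RefSeq windows on GRCm38.p6, from 250 bases before to 50 after a transcription start, were found for 7 of the 10 genes, with 2 windows for H2-DMa. H2-Ab1, Cd74 and Ciita had no entry. The letters ATTGG, the Y box that NF-Y binds, read as CCAAT on the other strand, and GCAAC, a core of the X box that RFX binds, were searched on both strands, and both were chosen after the sequences were seen. In each line the capitals mark ATTGG and, where it precedes it, GCAAC, and every sequence reads 5′ to 3′ on the strand of its gene.
H2-Aa: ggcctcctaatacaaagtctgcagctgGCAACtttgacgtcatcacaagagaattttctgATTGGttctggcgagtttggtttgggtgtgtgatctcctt
H2-Eb1: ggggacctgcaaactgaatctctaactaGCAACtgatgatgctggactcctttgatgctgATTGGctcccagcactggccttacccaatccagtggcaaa
H2-Oa: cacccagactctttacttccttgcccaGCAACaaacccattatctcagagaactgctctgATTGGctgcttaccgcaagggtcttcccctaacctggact
H2-Ob: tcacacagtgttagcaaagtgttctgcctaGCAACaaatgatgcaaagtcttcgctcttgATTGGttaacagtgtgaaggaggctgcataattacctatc
H2-DMb1: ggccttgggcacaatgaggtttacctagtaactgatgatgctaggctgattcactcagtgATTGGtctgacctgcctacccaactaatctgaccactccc
H2-DMb2: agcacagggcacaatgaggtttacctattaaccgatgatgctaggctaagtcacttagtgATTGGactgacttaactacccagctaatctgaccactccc
These stretches lie at chr17:34287832-34287931 on the minus strand for H2-Aa, and on the plus strand at chr17:34305748-34305847 for H2-Eb1, chr17:34092276-34092375 for H2-Oa, chr17:34238788-34238887 for H2-Ob, chr17:34153070-34153169 for H2-DMb1 and chr17:34145099-34145198 for H2-DMb2. In H2-Aa, H2-Eb1, H2-Oa and H2-Ob, GCAAC stood 28, 27, 28 and 25 bases ahead of ATTGG, and ATTGG began 48, 59, 43 and 57 bases before the start. This order on 1 strand, with at most 40 bases between, was present in 4 of the 8 windows of these genes and in 1.76% of the 32851 mouse windows in the table. Since the letters were chosen after these windows were seen, this contrast is a description and not a test. Singly the letters are common: ATTGG was in 7 of the 8 windows and in 37.4% of all, and GCAAC in 5 of the 8 and in 35.2% of all. The H2-Eb1 stretch also holds 1 CCAAT after its ATTGG, left in lower case. In H2-DMb1 and H2-DMb2, ATTGG began 61 and 90 bases before the start, and the windows, lined up on it, were identical at 86 of 100 bases. A match to these letters is a description of the sequence and not a measured binding site.

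Of the 10 genes, 8 lie in the class II region of chromosome 17, Cd74 on chromosome 18 (chr18:60803848-60812652, plus strand) and Ciita on chromosome 16 (chr16:10480059-10528418, plus strand), by GENCODE M21 on GRCm38. Gene versions in the counted files differ from that release for all 10, so lengths and coordinates are those of the release. Some counts cannot be given to 1 gene with certainty. H2-DMb1 and H2-DMb2 share 581 of their 25-base words, 35.1% of those of H2-DMb1 and 33.4% of those of H2-DMb2, and reads were 25 bases long. Exons of the opposite strand overlap Ciita for 329 bp (Dexi), H2-DMa for 360 bp (Brd2) and H2-Oa for 321 bp (BC051537), and the use of strand in counting is not given in the sources used here, so reads from these partners cannot be told apart.

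Total counts were between 7147601 and 16973392 per mouse, and the level that 3 counts give, the floor set by counting error only, was between 0.169 and 0.443 CPM, the unit of all levels given here, which divides counts by the TMM-adjusted library size. All 10 genes were above it in every mouse and passed the expression filter. CTL replicate 2 stood apart: its mean correlation with the other mice over log2 CPM was 0.875, against 0.923 to 0.944 for the other 5. Prdm1 itself lay between 27.5 and 30.9 CPM in the 6 mice (log2 fold change 0.09, SE 0.19, adjusted p = 0.996 by edgeR), which does not check the labels, since the deletion is aimed at other cells. Genes of CD4+ T cells in general were present throughout: Cd4 lay between 774 and 1061 CPM and Cd3e, a chain of the T cell receptor complex, between 542 and 786 CPM.

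Cd74 was the most abundant of the 10 genes per length and the classical chains followed, in both groups. On the scale of CPM per kb of exon, averaged over 6 mice, Cd74 stood at 734 ± 289 (SD, n = 6), H2-Ab1 at 438 ± 171, H2-Eb1 at 400 ± 163 and H2-Aa at 212 ± 95.9. The editors were far lower, with H2-DMa at 38.9 ± 7.08, H2-DMb1 at 27.9 ± 10.9 and H2-DMb2 at 11.3 ± 4.66, and the inhibitor chains lay among them, H2-Oa at 22.8 ± 4.11 and H2-Ob at 13.3 ± 3.01. Ciita was lowest, at 5.46 ± 2.9. Neighbours in this order kept it in all 6 mice, except H2-DMb1 over H2-Oa, in 5 of 6, and H2-Ob over H2-DMb2, in 4 of 6. H2-Ab1 exceeded H2-Eb1 in every mouse, but by no more than 1.22 times. With the longest transcript as the length instead of all exons, H2-Ab1 came before Cd74 and H2-Ob before H2-Oa.

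In single mice the 4 most abundant genes had the same shape, low in CTL replicate 2 and high in Prdm1-CKO replicate 3. Cd74 was at 1480, 453 and 1018 CPM in CTL replicates 1 to 3 and at 1202, 1337 and 1905 CPM in Prdm1-CKO replicates 1 to 3. H2-Aa, the alpha chain of the I-A dimer, was at 731, 236 and 865 CPM in CTL and 670, 997 and 1331 CPM in Prdm1-CKO mice. In both genes Prdm1-CKO replicate 1 lay among the CTL values, so the groups overlapped. H2-Ab1, the beta chain of I-A, was at 1108, 375 and 1111 CPM in CTL and 1063, 1389 and 1697 CPM in Prdm1-CKO mice. H2-Eb1, the beta chain of I-E, was at 703, 275 and 828 CPM in CTL and 658, 1014 and 1192 CPM in Prdm1-CKO mice. Again CTL replicate 2 was far below the other 5 mice and Prdm1-CKO replicate 1 was below CTL replicates 1 and 3.

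H2-DMa, the alpha chain of the editor, varied less, at 122, 102 and 152 CPM in CTL and 119, 140 and 169 CPM in Prdm1-CKO mice. H2-DMb1, a beta chain of the editor, was at 42.8, 15.0 and 57.7 CPM in CTL and 41.3, 58.9 and 66.0 CPM in Prdm1-CKO mice. H2-DMb2, the other beta chain, was at 22.5, 7.46 and 13.2 CPM in CTL and 24.2, 21.5 and 30.1 CPM in Prdm1-CKO mice. The groups overlapped in all of these, in H2-DMb2 only because Prdm1-CKO replicate 2 lay just under CTL replicate 1. The inhibitor chain H2-Oa was at 35.1, 25.5 and 37.6 CPM in CTL and 24.1, 34.2 and 36.0 CPM in Prdm1-CKO mice, and it alone was lowest in Prdm1-CKO replicate 1 and highest in CTL replicate 3. H2-Ob, its partner, was at 85.0, 47.1 and 63.0 CPM in CTL and 66.4, 76.6 and 91.9 CPM in Prdm1-CKO mice.

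Ciita, the transactivator, spread over the widest range of the 10, 12.2 times from the lowest mouse to the highest. It was at 49.3, 7.82 and 53.6 CPM in CTL and 52.0, 54.7 and 95.1 CPM in Prdm1-CKO mice, from 720, 66 and 362 and from 923, 538 and 1389 counts. Of the 6 mice, 4 lay close together, with CTL replicate 2 under them and Prdm1-CKO replicate 3 above. Next in range were H2-Aa, at 5.63 times, and H2-Ab1, at 4.52 times, and the narrowest were H2-Ob at 1.95 times, H2-DMa at 1.65 times and H2-Oa at 1.56 times.

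**Figure D1:**
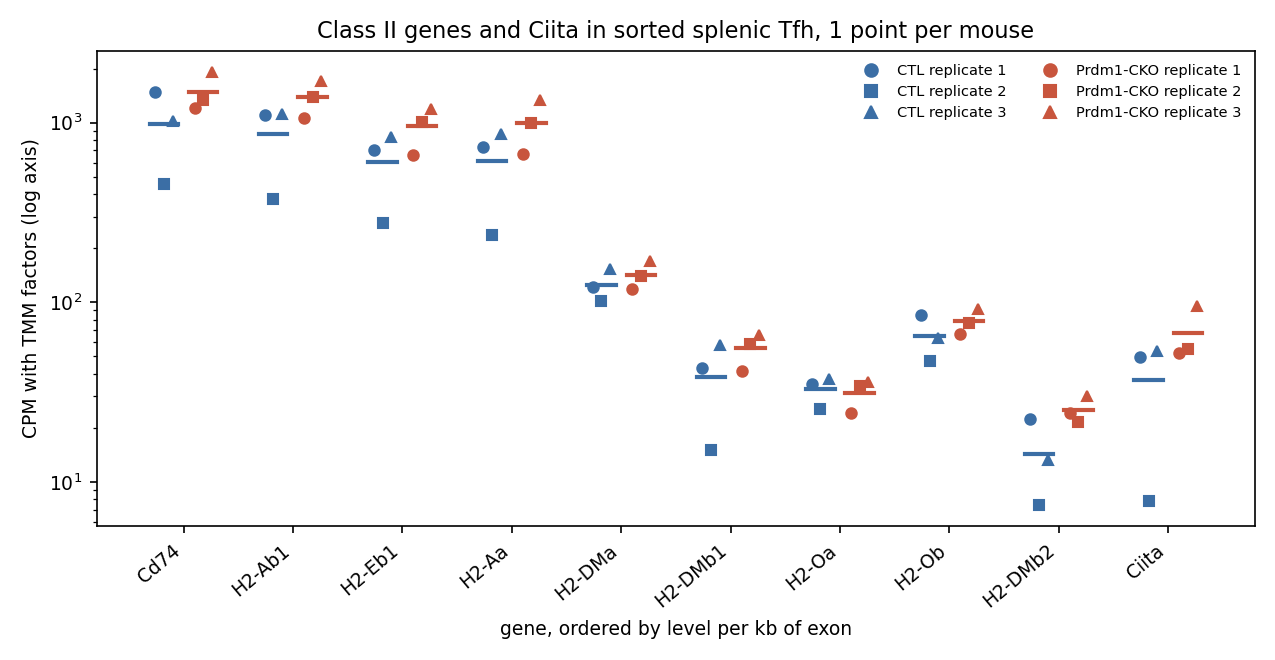
CPM with TMM factors (log axis) of each of the 10 genes, 1 point per mouse, with CTL in blue, Prdm1-CKO in red and a line at each group's mean. CTL replicate 2 (blue square) is lowest in 9 of the 10 genes, and Prdm1-CKO replicate 3 (red triangle) is highest in 9 of 10.

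The genes were not lower to the same degree in CTL replicate 2. Against the mean of the other 5 mice, its level was 0.128 for Ciita, 0.257 for H2-Aa, 0.282 for H2-DMb1, 0.295 for H2-Ab1, 0.313 for H2-Eb1, 0.326 for Cd74 and 0.335 for H2-DMb2, but 0.616 for H2-Ob, 0.727 for H2-DMa and 0.763 for H2-Oa. Of the 4 genes whose windows hold GCAAC ahead of ATTGG, H2-Aa and H2-Eb1 had low ratios and H2-Ob and H2-Oa high ones. An exact match leaves out near ones, such as gtaac in H2-DMb1, and Ciita, H2-Ab1 and Cd74 had no window. A relation of these ratios to the promoter letters was therefore not tested.

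None of the 10 genes passed the test of Prdm1-CKO against CTL mice. Ciita had the largest log2 fold change, 0.87 (SE 0.60), with a 95% interval from -0.50 to 2.23, that is 1.82-fold with bounds of 0.706 and 4.71. H2-DMb2 came next, with 0.80 (SE 0.39) and an interval from -0.10 to 1.71. An exact two-sided permutation test on log2(CPM + 1), which cannot go below p = 0.1 with 3 against 3 mice, gave p = 0.2 for both. Adjusted over all 14555 genes tested, edgeR's quasi-likelihood p was 0.996 for each of the 10. These intervals are wide: for Ciita and the I-A chains they hold both no difference and a log2 fold change above 1.

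For the invariant and classical chains the log2 fold changes in the same fit were close to each other. Cd74 had 0.59 (SE 0.38; interval -0.28 to 1.46), H2-Aa 0.71 (SE 0.44; interval -0.30 to 1.72), H2-Ab1 0.68 (SE 0.38; interval -0.20 to 1.55) and H2-Eb1 0.66 (SE 0.39; interval -0.22 to 1.55). The exact permutation test gave p = 0.3 for each of these. The editor and inhibitor chains spread more: H2-DMb1 had 0.52 (SE 0.44), H2-Ob 0.26 (SE 0.25), H2-DMa 0.18 (SE 0.20) and H2-Oa -0.06 (SE 0.25), with exact permutation p-values of 0.4, 0.4, 0.5 and 0.6.

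Counted over the 10 genes, 9 had a log2 fold change above 0, beside 51.1% of all genes tested, and their median was 0.63, beside 0.01 for all genes. At an unadjusted edgeR p under 0.05, 0 of the 10 were called, beside 2.35% of all genes (342), and at an adjusted p under 0.05, 0 of the 10, beside 0% of all genes. DESeq2 called 9 genes at an adjusted p under 0.05, with 1 of the 10, H2-DMb2, at an unadjusted p under 0.05, beside 681 of 26030 genes. In 0 of the 10 did every Prdm1-CKO mouse lie above every CTL mouse, beside 4.56% of all genes, and in 0 did every Prdm1-CKO mouse lie below, beside 3.86%. Without CTL replicate 2, the median of the 10 was 0.27, beside -0.01 for all genes tested in that fit. The range was -0.22 (H2-Oa) to 0.48 (H2-DMb2), and 9 of 10 were still above 0. At an unadjusted edgeR p under 0.05 there were 0 of the 10, beside 363 of 15705 genes. Without that mouse, Ciita had a log2 fold change of 0.38, H2-Aa of 0.31 and Cd74 of 0.24.

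**Figure D2:**
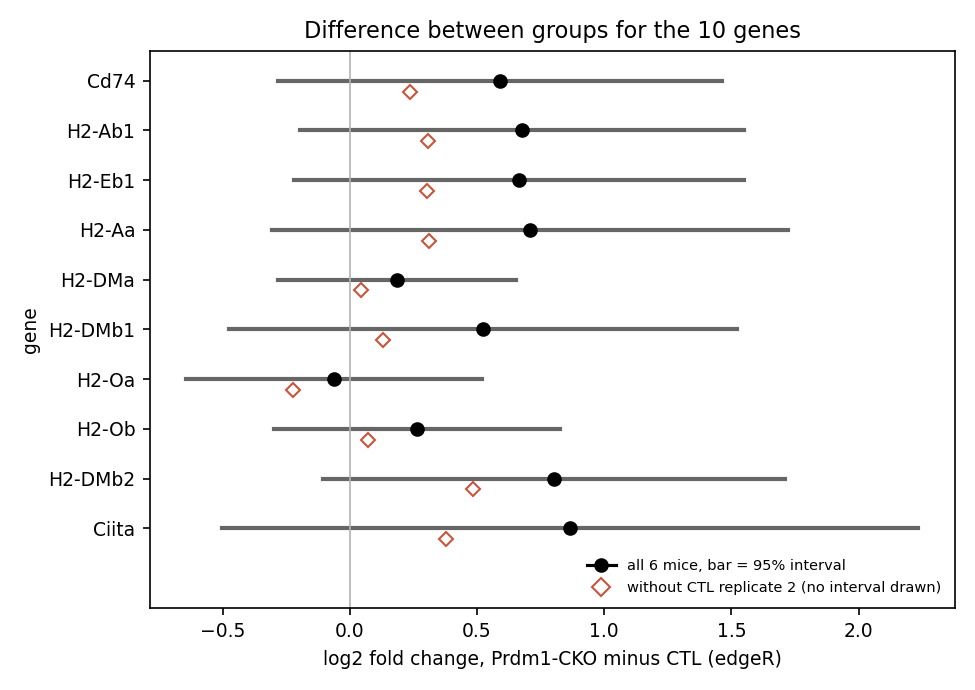
Log2 fold change of each gene, Prdm1-CKO minus CTL, from edgeR on all 6 mice (black points, bars for the 95% interval) and without CTL replicate 2 (open diamonds). Every bar crosses 0, and every diamond lies to the left of its point.

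Common variation across mice was read against Cd74, the gene of the invariant chain. In log2 CPM over 6 mice, H2-Ob followed Cd74 most closely, with Pearson's r = 0.971 (exact permutation p = 0.00139, the smallest that 720 orders give here, adjusted 0.0167) and Spearman's rho = 1 (exact permutation p = 0.00278, adjusted 0.0333). Without CTL replicate 2 and Prdm1-CKO replicate 3, the mice farthest from the median of Cd74, r was 0.961. H2-DMb2 had r = 0.960 (exact permutation p = 0.00694, adjusted 0.0333) and rho = 0.829 (p = 0.0583 by permutation, adjusted 0.233), and r = 0.775 without those mice. Both thus kept the sign and most of the size of the relation in the 4 mice left. All p-values here were adjusted over 12 relations, those of the other 9 genes and of 3 reference genes of other cells. By r over 6 mice, among 14554 genes other than Cd74, H2-Ob ranked 84, H2-Ab1 135, H2-DMb2 166, Ciita 173, H2-Aa 386 and H2-Eb1 550. H2-DMb1 ranked 881, H2-DMa 2766 and H2-Oa 4192. Many other genes thus followed Cd74 more closely than these did. The adjusted p-values do not set the class II genes apart from genes in general.

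For the classical chains and Ciita, r was smaller or of the other sign without that pair of mice. H2-Ab1 had r = 0.964 (exact permutation p = 0.0139, adjusted 0.0417; rho = 0.714, permutation p = 0.136), but r = 0.288 without the pair of mice. H2-Aa had r = 0.936 (exact permutation p = 0.0236, adjusted 0.0417; rho = 0.714, permutation p = 0.136) and r = -0.11 without them, and H2-Eb1 r = 0.922 (exact permutation p = 0.0278, adjusted 0.0417; rho = 0.714, permutation p = 0.136) and r = -0.06. Ciita had r = 0.959 (exact permutation p = 0.0278, adjusted 0.0417; rho = 0.600, permutation p = 0.242) and r = -0.54. The pair left out held the lowest and the highest Cd74, and 4 mice are too few to tell whether a relation holds. This applies to H2-Ob and H2-DMb2 as well. Without CTL replicate 2 alone, r was 0.776 for H2-Ab1, 0.754 for Ciita, 0.630 for H2-Aa and 0.575 for H2-Eb1. H2-DMb1 (r = 0.895, exact permutation p = 0.0528; rho = 0.714, permutation p = 0.136), H2-DMa (r = 0.730, exact permutation p = 0.0917; rho = 0.600, permutation p = 0.242) and H2-Oa (r = 0.572, exact permutation p = 0.240; rho = 0.314, permutation p = 0.564) had adjusted p-values for r of 0.0704, 0.11 and 0.262, and r of -0.41, -0.61 and -0.02 without those mice.

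The reference genes gave unlike results. Csf1r, the receptor for the macrophage growth factor CSF1, was at 827, 319 and 386 CPM in CTL and 739, 559 and 807 CPM in Prdm1-CKO mice. Its r with Cd74 was 0.866 (exact permutation p = 0.00833, adjusted 0.0333), rho was 0.886 (permutation p = 0.0333, adjusted 0.2) and r was 0.808 without the same pair of mice. Cd79a, a chain of the B cell receptor complex, was at 25.9, 6.75 and 17.8 CPM in CTL and 32.4, 19.7 and 31.0 CPM in Prdm1-CKO mice. Its r was 0.926 (exact permutation p = 0.0236, adjusted 0.0417), rho 0.657 (permutation p = 0.175) and r 0.379 without those mice. Flt3, a growth factor receptor of dendritic cells, was at 24.8, 28.7 and 10.5 CPM in CTL and 13.0, 24.3 and 25.7 CPM in Prdm1-CKO mice, highest in the mouse where Cd74 was lowest. Its r was -0.06 (exact permutation p = 0.924), its rho 0.143 (permutation p = 0.803) and its r 0.940 without those mice. Within CTL or Prdm1-CKO alone there were 3 mice, too few for these relations.

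**Figure D3:**
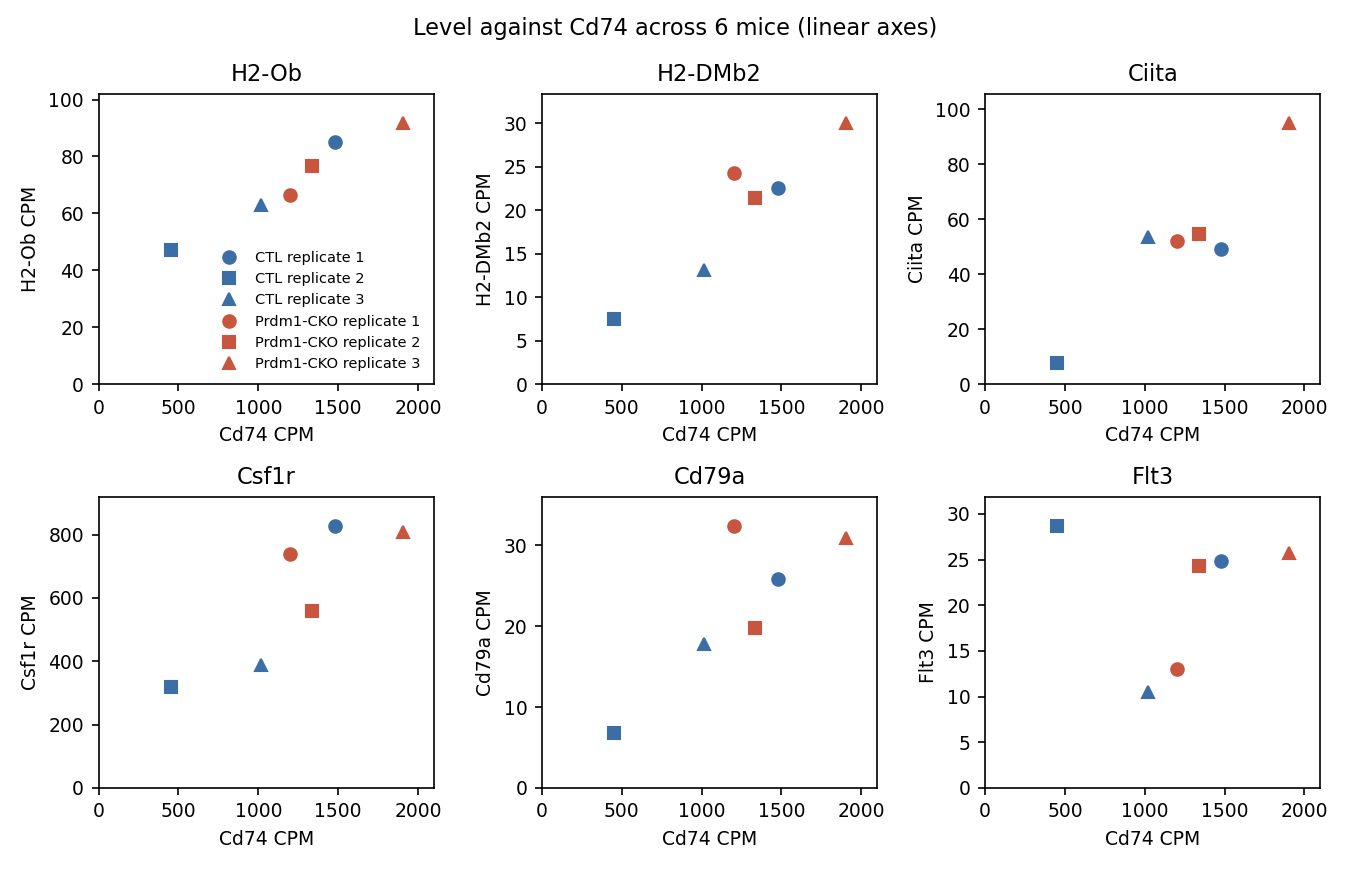
CPM of 6 genes against CPM of Cd74 (linear axes from 0), 1 point per mouse, with CTL in blue and Prdm1-CKO in red. H2-Ob and Cd74 put all 6 mice in the same order, 4 mice share nearly 1 level of Ciita (49.3 to 54.7 CPM), and Flt3 is at its highest, 28.7 CPM, in the mouse with the least Cd74.

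Other cell types' markers were in these libraries and moved in part with the class II genes. The 10 genes together came to 4380, 1544 and 4199 CPM in CTL and 3919, 5123 and 6613 CPM in Prdm1-CKO mice. All 14 macrophage and monocyte markers listed passed the filter, and they summed to 5294, 2490 and 3734 CPM in CTL and 5066, 4298 and 5199 CPM in Prdm1-CKO mice. CTL replicate 2 was lowest in both sums. Prdm1-CKO replicate 3 was highest in the class II sum and in the B cell, conventional dendritic, plasma cell and plasmacytoid dendritic sums given next, and CTL replicate 1 was highest in the macrophage sum. Lyz2, the lysozyme of myeloid cells, took most of the macrophage sum, at 1763 to 3476 CPM. In Adgre1, which encodes the macrophage marker F4/80, CTL replicate 2 had 2.84 CPM and the other 5 mice 52.4 to 110 CPM, whereas Ccr2, a chemokine receptor of monocytes, was at 162, 133 and 136 CPM in CTL and 162, 130 and 193 CPM in Prdm1-CKO mice, with CTL replicate 2 not apart. Of the 14, 14 had a log2 fold change above 0 (median 0.45), and 2 had an unadjusted edgeR p under 0.05, beside 2.35% of all genes: C1qc, a complement chain (1.49, SE 0.57), and Cd5l, made by tissue macrophages (0.92, SE 0.30). By edgeR both had an adjusted p = 0.996, with an exact permutation p = 0.1. For Cd5l, the paper reports higher expression in Tfh cells of Prdm1-CKO mice by qPCR in another cohort.

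All 15 B cell markers passed the filter as well, but at low levels, with sums of 258, 181 and 171 CPM in CTL and 326, 218 and 330 CPM in Prdm1-CKO mice. Pax5, the factor that fixes B cell identity, lay between 0 and 3.05 CPM and Ebf1, an early B cell factor, between 0 and 2.93 CPM, both at 0 in CTL replicate 2. Cd79b, the partner of Cd79a, was at 11.7 CPM in CTL replicate 2 and at 35.4 to 58.9 CPM in the others. Cd22, the marker of this list with the highest mean, was not low in that mouse. It was at 45.9, 61.1 and 35.1 CPM in CTL and 63.3, 35.7 and 47.0 CPM in Prdm1-CKO mice (log2 fold change 0.04, SE 0.28). Fcrl1, an Fc receptor-like protein of B cells, was highest in CTL replicate 2, at 56.7 CPM. Of the 15, 13 had a log2 fold change above 0 (median 0.72), 0 had an unadjusted edgeR p under 0.05 and 4 had every Prdm1-CKO mouse above every CTL mouse, beside 4.56% of all genes. For scale, 1 Cd79a count went with 37.1 to 67.8 Cd74 counts, with no difference between groups past the test (exact permutation p = 0.9).

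Conventional dendritic cell markers summed to 671 to 896 CPM in CTL and 678 to 913 CPM in Prdm1-CKO mice over 12 genes, of which Ccr7 and Dpp4, which T cells also express, were the highest, at 349 to 453 and 96.5 to 202 CPM. Of the 12, 7 had a log2 fold change above 0 (median 0.35). Cd209a, a lectin of dendritic cells and monocytes, was at 108, 41.5 and 119 CPM in CTL and 63.6, 113 and 159 CPM in Prdm1-CKO mice, the same order of lowest and highest mouse as the class II sum. Zbtb46, a factor of conventional dendritic cells, was instead highest in CTL replicate 2, at 29.4 CPM, against 6.91 to 14.9 CPM in the other mice. Of the 7 plasmacytoid dendritic cell markers, Siglech, their lectin, was at 0 in CTL replicates 2 and 3 and Prdm1-CKO replicate 2 and at most at 0.616 CPM, Klk1 and Cox6a2 had 3 or fewer counts in every mouse, and the sum, 69.3 to 97.3 CPM in CTL and 94.6 to 112 CPM in Prdm1-CKO mice, came mostly from Bst2, at 34.2 to 57.5 CPM. Plasma cell markers (9 genes, 8 with a log2 fold change above 0, median 0.22) summed to 485 to 743 CPM in CTL and 746 to 954 CPM in Prdm1-CKO mice, led by Jchain, the joining chain of antibodies (0.60, SE 0.24, exact permutation p = 0.3), 1 of the 9 at an unadjusted edgeR p under 0.05, beside 2.35% of all genes. Tfh markers summed to 4881 to 6043 CPM in CTL and 4815 to 5039 CPM in Prdm1-CKO mice (16 genes, 7 above 0, median -0.03). CTL replicate 2, at 5016 CPM, was within the range of the others there. Of the 16, 1 had an unadjusted edgeR p under 0.05, beside 2.35% of all genes. It was Cd4, lower in Prdm1-CKO mice (log2 fold change -0.29, SE 0.12, edgeR adjusted p = 0.996). In 2 of the 16, every Prdm1-CKO mouse lay below every CTL mouse, beside 3.86% of all genes. In bulk libraries, fewer cells of a type and less RNA per cell cannot be told apart, and the part of these other cells in the class II values was not tested.

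**Figure D4:**
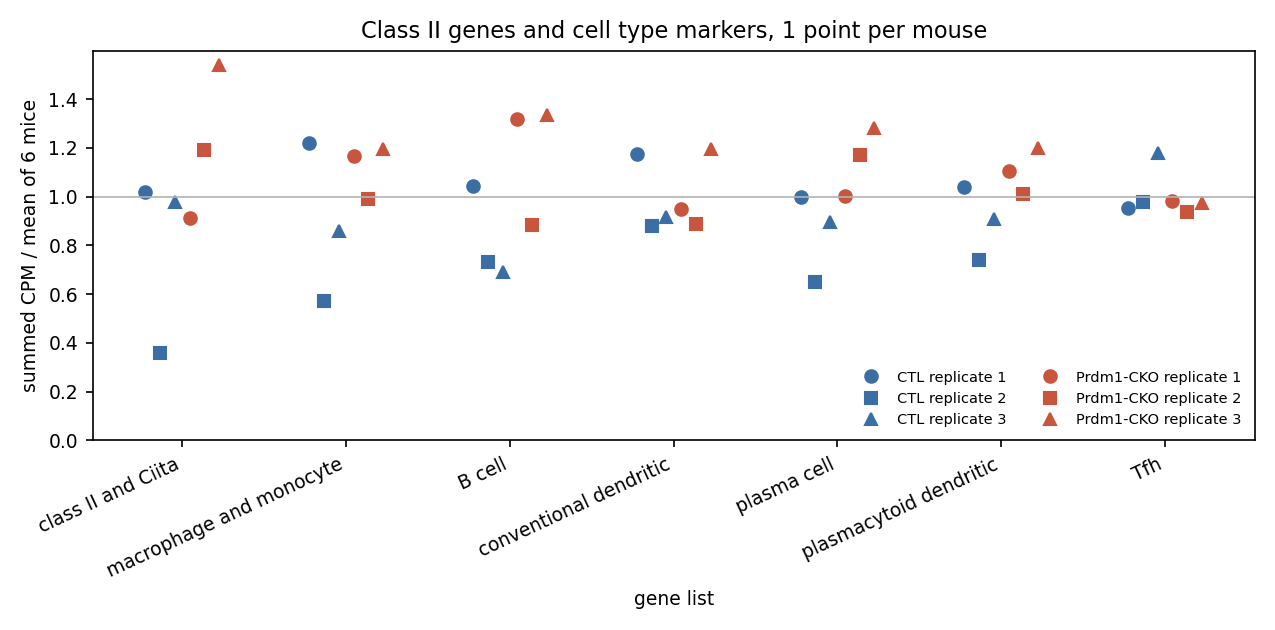
Summed CPM of the class II genes with Ciita and of 6 marker lists, each divided by its mean over 6 mice, 1 point per mouse (CTL blue, Prdm1-CKO red). CTL replicate 2 is at 0.36 of the mean for the class II genes, 0.573 for macrophage and monocyte markers, 0.731 for B cell markers and 0.978 for Tfh markers.

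Ratios within a mouse show whether the chains kept their proportions as the levels moved. The ratio of H2-Aa to H2-Ab1, the chains of I-A, was 0.66, 0.63 and 0.779 in CTL and 0.63, 0.718 and 0.784 in Prdm1-CKO mice, 1.24 times from lowest to highest, while the levels of these chains ranged 5.63 and 4.52 times. The ratio of H2-DMa to both H2-DMb genes together was 1.87, 4.53 and 2.15 in CTL and 1.81, 1.75 and 1.76 in Prdm1-CKO mice, with every CTL mouse above every Prdm1-CKO mouse. An exact permutation test gave p = 0.1, the smallest that 3 against 3 mice allow, and 0.7 adjusted over 7 ratios. How reads shared by the H2-DMb genes were counted is not given in the sources used here, and the part of such reads in this ratio was not tested. The ratio of H2-Oa to H2-Ob was 0.413, 0.54 and 0.596 in CTL and 0.362, 0.446 and 0.392 in Prdm1-CKO mice (exact permutation p = 0.2, adjusted 0.7).

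Cd74 stood to H2-Aa at 2.02, 1.92 and 1.18 in CTL and at 1.79, 1.34 and 1.43 in Prdm1-CKO mice (exact permutation p = 0.8). The ratio thus ranged 1.72 times, more than that within I-A. The split between the H2-DMb genes, a ratio chosen after seeing the data, was uneven between mice. H2-DMb2 was 0.526, 0.496 and 0.228 of H2-DMb1 in CTL and 0.587, 0.364 and 0.455 of it in Prdm1-CKO mice (exact permutation p = 0.7). CTL replicate 3 had the lowest share of H2-DMb2, from 89 counts. Cd74 to Csf1r, also chosen after seeing the data, ranged from 1.42 in CTL replicate 2 to 2.63 in CTL replicate 3 (exact permutation p = 0.7).

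**Figure D5:**
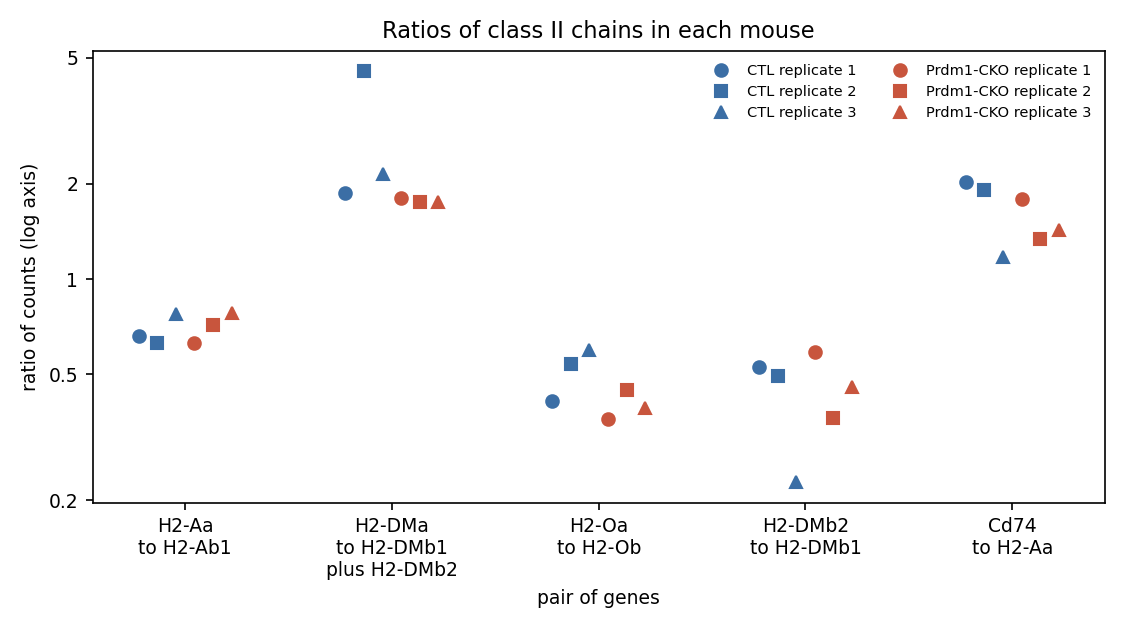
Ratio of counts between pairs of class II genes (log axis), 1 point per mouse, with CTL in blue and Prdm1-CKO in red. H2-Aa to H2-Ab1 stays between 0.63 and 0.784, while H2-DMa to the sum of the H2-DMb genes is 4.53 in CTL replicate 2 and 1.75 to 2.15 in the other 5 mice.

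Of 12 genes for factors that work at class II promoters (RFX and NF-Y subunits, Creb1 and coactivators), 3 had a log2 fold change above 0, the median was -0.13 and 0 had an unadjusted edgeR p under 0.05. Smarca4, an ATPase that remodels chromatin, was at 179, 192 and 177 CPM in CTL and 154, 170 and 152 CPM in Prdm1-CKO mice, and Crebbp and Ep300, histone acetyltransferases, lay between 102 and 188 and between 103 and 128 CPM. The sum over the 12 lay between 677 and 899 CPM in CTL, highest in CTL replicate 2, and between 670 and 777 CPM in Prdm1-CKO mice.

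Genes of antigen processing and class II turnover had 12 of 13 log2 fold changes above 0, with a median of 0.22, and 0 with an unadjusted edgeR p under 0.05. Ctss, the protease that cuts the invariant chain, was at 913, 526 and 778 CPM in CTL and 856, 812 and 917 CPM in Prdm1-CKO mice. Ctsb, another endosomal protease, ranged from 794 to 1342 CPM, and Cd83, which keeps class II at the cell surface, from 202 to 345 CPM. CTL replicate 2 was the lowest mouse in all 3 of these.

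Class I is made by nearly all cells. Of 17 class I genes, 14 had a log2 fold change above 0 and the median was 0.05. H2-K1, a class I heavy chain, ranged from 4390 to 5406 CPM and B2m, the light chain, from 3397 to 4324 CPM, 1.23 and 1.27 times from lowest to highest mouse. H2-D1, another heavy chain, ranged 1.37 times, and CTL replicate 2 was the lowest mouse in all 3 of these. Nlrc5, the class I counterpart of Ciita, was at 248, 306 and 239 CPM in CTL and at 195, 193 and 177 CPM in Prdm1-CKO mice, with no overlap, and its log2 fold change was -0.49 (SE 0.15, exact permutation p = 0.1, edgeR adjusted p = 0.996). It was highest in CTL replicate 2, where Ciita was lowest.

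The route from interferon-gamma to Ciita and the B cell factors of Ciita were mixed. Of 9 interferon genes, 5 had a log2 fold change above 0 (median 0.07), with 0 at an unadjusted edgeR p under 0.05. Ifngr1, a chain of the receptor, was at 454, 217 and 373 CPM in CTL and 486, 433 and 498 CPM in Prdm1-CKO mice. Irf1, which acts at a Ciita promoter, was between 229 and 367 CPM, and Jak1, a kinase of the receptor, between 362 and 991 CPM. Of 9 B cell and myeloid factors, 7 were above 0 (median 0.05) and 2 had an unadjusted edgeR p under 0.05, beside 2.35% of all genes. Spi1, the myeloid and B cell factor PU.1, was at 42.7, 64.6 and 146 CPM in CTL and 177, 162 and 161 CPM in Prdm1-CKO mice (log2 fold change 0.99, SE 0.40, exact permutation p = 0.1). Pou2af1, a B cell coactivator, was at 42.0, 53.8 and 71.6 CPM in CTL and 42.9, 29.6 and 38.2 CPM in Prdm1-CKO mice (-0.59, SE 0.25, exact permutation p = 0.2). By edgeR both had an adjusted p = 0.996, and CTL replicate 1, not replicate 2, was the mouse with the least Spi1.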

How the data were processed

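RNA-seq of sorted splenic Tfh cells from 3 CTL and 3 Prdm1-CKO mice was used, grouped by the sample titles. The authors made Smart-seq2 libraries, sequenced paired reads, aligned them to GRCm38 and deposited raw counts per gene, made with featureCounts and not normalized. The submitters' processing notes name STAR 2.4.2a, DESeq2 and build GRCm38.p6. Identifiers without version were matched to GENCODE M21 (53274 of 53379 found).

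Counts were normalized by TMM and tested with edgeR 4.0.16 in R 4.3.3 (filterByExpr, quasi-likelihood F test, 3 against 3 mice, no covariate), and p-values were adjusted by Benjamini-Hochberg over all 14555 genes. CPM used TMM factors, and log2 CPM a prior count of 2. Correlations, ratios and single genes used two-sided exact permutation tests, those of single genes on log2(CPM + 1) and added after seeing the data. The edgeR p-values set a group difference against the spread between these mice. The permutation p-values rank a value among all reorderings of these mice. Code was tested on simulated counts. The alternatives were DESeq2 1.42.0, its size factors, other filters, a replicate block, immunoglobulin genes left out and each mouse left out. The 10 genes and the gene lists were chosen with earlier results of these data known. Besides the 10 genes, the text names H2-Eb2 and H2-Ea-ps, Prdm1, the reference genes Cd79a, Csf1r and Flt3, up to 3 genes of highest mean CPM per list, any with unadjusted p under 0.05, and the 5 genes most correlated with Cd74. Adgre1, Pax5, Ebf1, Zbtb46, Siglech, Klk1 and Cox6a2, which mark other cells, were added after their values were seen.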

Additional observations from a re-analysis of the deposited data

How the results depend on the processing

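Under 12 alternatives to the edgeR test of the 10 genes (6 other settings and each of 6 mice left out), 118 of 120 fold changes kept their direction, 2 turned and 0 passed an adjusted p under 0.05, the smallest adjusted p of any of the 10 being 0.669. The 2 were those of H2-Oa, whose log2 fold change of -0.06 ranged from -0.223 to 0.106 with 1 mouse left out (0.05 without CTL replicate 3, 0.11 without Prdm1-CKO replicate 1). Over all genes, 0 were called at an adjusted p under 0.05, but 9 with the DESeq2 Wald test and 1 with no filter on low counts, none of them among the 10. At an unadjusted p under 0.05, 0 of the 10 were counted in edgeR, 1 with DESeq2 (H2-DMb2), 6 with no filter (H2-Aa, H2-Ab1, H2-Eb1, Cd74, Ciita and H2-DMb2, adjusted p = 0.905) and 0 to 2 with 1 mouse left out, the 2 being Cd74 (0.99) and H2-DMb2 (1.28) without CTL replicate 1. Over all genes tested, the count at an unadjusted p under 0.05 was 342 of 14555 in edgeR. It became 681 of 26030 with DESeq2, 936 of 26045 with no filter and 371 of 14555 with the replicate block. Without CTL replicate 1 it was 1057 of 14724, without CTL replicate 2, 363 of 15705, and without CTL replicate 3, 952 of 15675. Without Prdm1-CKO replicate 1 it was 208 of 14781, without Prdm1-CKO replicate 2, 263 of 15578, and without Prdm1-CKO replicate 3, 174 of 14715. The cause of these changes was not tested. Same-numbered mice of the 2 groups had residual correlations of 0.159, 0.0282 and 0.016, and mice of unlike number -0.131 to 0.0829. Whether same-numbered mice share more than a number cannot be told from so few pairs. With the replicate number as a block, 1 of the 10, H2-DMb2 (0.93), had an unadjusted p under 0.05, and 0 genes were called. The lowest counts among the 10 genes were 63 (H2-DMb2) and 66 (Ciita) in CTL replicate 2 and 89 (H2-DMb2) in CTL replicate 3, the shallowest library. An exact permutation test of 3 against 3 mice cannot go below p = 0.1.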

Other observations

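Both other class II locus genes looked at, H2-Eb2 and H2-Ea-ps, were low. H2-Eb2, a further E beta gene, was at 1.64, 0 and 1.48 CPM in CTL and 3.27, 0.508 and 5.14 CPM in Prdm1-CKO mice (2.82-fold, 95% interval 0.443 to 18.0, exact permutation p = 0.4). It was at 0 in CTL replicate 2 and highest in Prdm1-CKO replicate 3, as most of the 10 genes were lowest and highest there. H2-Ea-ps, the pseudogene entry of the E alpha chain, had 0 counts in 5 mice and 1 count in Prdm1-CKO replicate 3, while H2-Eb1, the beta chain that would pair with it, had 2321 to 17403 counts.

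The 5 genes outside the 10 whose log2 CPM was most like that of Cd74 over 6 mice were Gm12207 (r = 0.996), Gm15787 (r = 0.993), Gm26887 (r = 0.993), Hap1 (r = 0.992) and Cd80 (r = 0.989), as a description chosen from all tested genes outside the 10. All were low, at mean levels of 1.46, 2.36, 1.10, 3.01 and 4.82 CPM. Cd80, a costimulatory ligand of antigen-presenting cells, ranged from 0.948 to 8.97 CPM. Without CTL replicate 2 these genes ranked 19, 35, 41, 57 and 82 among the tested genes outside the 10. Among the 10 genes, the one nearest to Cd74, H2-Ob, ranked 84 over all 6 mice, and H2-Oa, the farthest, 4192, of all 14554 genes other than Cd74.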
